A study of Mus musculus with 24 samples.

Results

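The 8 genes described here encode the core of the brain extracellular matrix that condenses into perineuronal nets. They are the lecticans aggrecan (Acan), brevican (Bcan), neurocan (Ncan) and versican (Vcan), the link proteins Hapln1 and Hapln4, the cross-linking glycoprotein tenascin-R (Tnr) and the lectican-cleaving protease Adamts4. They were taken by gene symbol from a table of read counts for 51912 genes, and all 8 had a row. RNA was sequenced from the ventral and the dorsal hippocampus of 12 C57BL/6J mice, whose fathers had been given nicotine or saline chronically. The 24 libraries form 8 groups of 3: nicotine-sired males, nicotine-sired females, saline-sired males and saline-sired females, each with a ventral and a dorsal group. Both regions came from each animal. The age of the offspring is not given in the sources used here. Each of the 4 pairings of sire treatment and sex carries its own number in the library titles, so a sire or litter that the number may mark cannot be told apart from those groups. The p-values below measure the spread between libraries, and the labels do not say whether the libraries of 1 group come from separate litters.

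Lecticans are chondroitin sulfate proteoglycans that bind hyaluronan through their head domain and tenascin-R through their tail domain. Link proteins hold the lectican to the hyaluronan chain, and the assembled mesh encloses mainly parvalbumin interneurons and, in the hippocampus, CA2 pyramidal cells. Perineuronal nets limit synaptic plasticity in the adult brain and have been studied for their part in fear memory. Adamts4, also called aggrecanase, cuts the core protein of lecticans.

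Library totals ran between 32049770 and 47486547 counts. The region labels were checked against markers: 5 of 5 ventral hippocampus markers were higher in ventral libraries (median log2 fold change 1.87) and 4 of 4 dorsal markers were lower (median -0.87). Choroid plexus markers, of which 15 of 15 were detected, summed to between 168 and 2889 CPM in ventral libraries and between 210 and 7606 CPM in dorsal libraries (CPM, counts per 1e6 of the scaled library size). In 8 libraries the mean log2 CPM of these markers was over 3, the "choroid-rich" libraries below. They are the dorsal libraries of nicotine-sired males A and B, nicotine-sired females B and C, saline-sired male A and saline-sired female C, and the ventral libraries of nicotine-sired females B and C. Without them, nicotine-sired male C is left alone in its dorsal group, and nicotine-sired female A in its ventral and its dorsal group. In bulk tissue, fewer cells of a type and less RNA per cell cannot be told apart.

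Brevican was the most abundant of the 8 transcripts per unit length. Its level averaged 107 ± 11.99 TPM (transcripts per 1e6, computed here from the counts and the exon length; SD over 24 libraries), and aggrecan, at 1.54 ± 0.50 TPM, was the least abundant. Between them in the order of levels came Hapln4 (69.3 ± 7.29 TPM), Ncan (56.2 ± 3.67 TPM), Tnr (28.8 ± 4.33 TPM), Adamts4 (9.50 ± 2.98 TPM), Hapln1 (9.05 ± 1.15 TPM) and Vcan (1.73 ± 0.32 TPM). In this order 3 neighbouring pairs overlapped between libraries: Hapln4 was above Ncan in 23 of 24 libraries, Adamts4 above Hapln1 in 15 of 24 and Vcan above Acan in 17 of 24. Of the summed lectican TPM, Bcan made up 64.5% ± 2.59 in ventral and 63.8% ± 1.64 in dorsal libraries (SD, n = 12 each), and Ncan made up 33.8% ± 2.46 in ventral and 34.0% ± 1.41 in dorsal libraries. Aggrecan, the lectican by which nets are usually recognised, made up 0.73% ± 0.20 of the lectican TPM in ventral and 1.14% ± 0.28 in dorsal libraries.

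**Figure D1:**
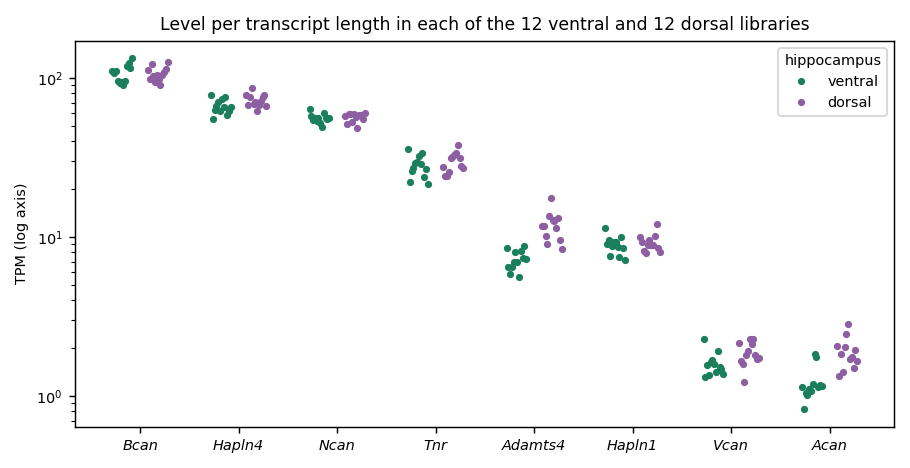
Level per transcript length of the 8 matrix genes, in TPM on a log axis, with 1 point per library (12 ventral, left; 12 dorsal, right in each pair). Bcan lies highest, at 90.3 to 133 TPM over all libraries, and Acan and Vcan lie lowest, under 3 TPM in every library.

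The genes lie on 5 chromosomes (GRCm38 coordinates). Distances were measured among the 8 genes only, and among these a lectican gene lies near a link protein gene at 2 loci. Distances to link protein genes outside the 8, such as Hapln2 and Hapln3, were not measured. Ncan (ENSMUSG00000002341, chromosome 8, 70093085 to 70120873, minus strand) and Hapln4 (ENSMUSG00000007594, chromosome 8, 70083457 to 70090862, plus strand) are 2222 bp apart. Vcan (ENSMUSG00000021614, chromosome 13, 89655312 to 89742509, minus strand) and Hapln1 (ENSMUSG00000021613, chromosome 13, 89539796 to 89611652, plus strand) are 43659 bp apart. Bcan (ENSMUSG00000004892) lies on chromosome 3 at 87987531 to 88000230 on the minus strand, and Acan (ENSMUSG00000030607) on chromosome 7 at 79053483 to 79115099 on the plus strand. Tnr (ENSMUSG00000015829, 159523769 to 159931729) and Adamts4 (ENSMUSG00000006403, 171250421 to 171260637) lie far apart on the plus strand of chromosome 1. Tnr shares 443 bp of exon with the antisense gene Gm38039. The strand setting of the counting is not given in the sources used here, so reads in this stretch may belong to either gene. Gm38039 averaged under 1 CPM in every group.

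RefSeq promoter windows (GRCm38.p6, 250 bases before to 50 after the RefSeq gene start) were at hand for 6 of the 8 genes, Hapln4 and Adamts4 being the others. RefSeq starts can differ from the GENCODE M21 coordinates given above, and the whole Bcan window lies upstream of the Bcan gene as bounded there. Those of Bcan, Ncan and Tnr are shown because the levels of Bcan and Ncan moved together between libraries while those of Bcan and Tnr moved oppositely, as described below. Whether the promoters have a part in this was not tested. Capitals mark matches to 3 promoter motifs, searched on either strand. The GC box was searched as GGGCGG. The CCAAT box was searched as the letters of its name. For the TATA box the search used the letters TATAAA. The Bcan window is chr3:88000307-88000606, the Ncan window chr8:70120795-70121094 (both on the minus strand) and the Tnr window chr1:159523519-159523818 (plus strand), each written 5′ to 3′ on the strand of the gene.
Bcan: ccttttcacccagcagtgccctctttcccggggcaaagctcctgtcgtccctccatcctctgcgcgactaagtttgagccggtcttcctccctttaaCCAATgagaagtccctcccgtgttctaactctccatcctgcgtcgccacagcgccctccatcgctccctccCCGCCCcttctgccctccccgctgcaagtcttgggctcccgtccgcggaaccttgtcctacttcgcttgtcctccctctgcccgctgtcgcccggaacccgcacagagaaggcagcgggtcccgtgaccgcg
Ncan: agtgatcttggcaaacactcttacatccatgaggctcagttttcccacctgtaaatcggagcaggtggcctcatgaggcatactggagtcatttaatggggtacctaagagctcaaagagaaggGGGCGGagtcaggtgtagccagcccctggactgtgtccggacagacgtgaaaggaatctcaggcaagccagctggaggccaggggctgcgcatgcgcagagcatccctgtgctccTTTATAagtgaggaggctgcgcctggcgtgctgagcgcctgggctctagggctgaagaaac
Tnr: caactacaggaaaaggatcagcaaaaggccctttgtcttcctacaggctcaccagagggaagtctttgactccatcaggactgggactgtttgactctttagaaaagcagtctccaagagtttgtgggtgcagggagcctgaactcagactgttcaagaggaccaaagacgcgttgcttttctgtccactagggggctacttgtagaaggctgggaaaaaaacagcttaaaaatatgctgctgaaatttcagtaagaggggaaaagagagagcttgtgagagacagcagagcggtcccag
Bcan holds 1 CCAAT box and 1 GC box, and its window is 64.0% G or C. Ncan holds 1 TATA box match, read on the strand opposite to the gene, and 1 GC box, at 56.7% G or C. Tnr holds none of these letters, at 48.0% G or C. Of all 32851 windows of this length, 13.6% hold the TATA box letters, 37.4% the CCAAT box and 35.7% the GC box, and the median window is 52.7% G or C.

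The comparison of regions asked whether net components differ along the long axis of the hippocampus. Aggrecan, versican and Adamts4 were lower in the ventral than in the dorsal hippocampus, while the levels of brevican and neurocan were close to equal. Over all 8 genes, edgeR's quasi-likelihood test called 3, all of them lower. Of the 19849 genes tested it called 29.2%, and 14.9% as lower. The members' median log2 fold change, ventral over dorsal, was -0.10, against -0.01 for all genes.

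Adamts4 showed the largest regional difference of the 8. It ranged between 12.1 and 20.0 CPM in ventral libraries (median 15.7) and between 19.0 and 37.5 CPM in dorsal libraries (median 26.1). The ranges met only at their ends, and the ventral library was the lower of the pair in 12 of 12 animals. The log2 fold change was -0.70 ± 0.08 (SE; edgeR adjusted p = 2.68e-06). Oligodendrocyte markers moved in the same direction: 10 of 10 were lower in ventral libraries (median -0.81), and their sum was between 3601 and 4943 CPM in ventral and between 5043 and 9286 CPM in dorsal libraries, with no overlap. With this sum as a covariate, a setting chosen after seeing the data, the Adamts4 difference was -0.02 ± 0.14 and was not called. That fit called 0 of 19849 genes with edgeR (2013 had an unadjusted p under 0.05). As the sums did not overlap, region and oligodendrocyte level cannot be told apart in these libraries.

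Aggrecan ranged between 3.03 and 6.16 CPM in ventral libraries (median 3.997) and between 4.80 and 9.13 CPM in dorsal libraries (median 6.22). The ranges overlapped, and the ventral library was the lower in 11 of 12 animals. The log2 fold change was -0.65 ± 0.10 (edgeR adjusted p = 5.04e-05), and it was called in each of the 12 refits that left out 1 animal. With the oligodendrocyte covariate it was -0.38 ± 0.26 and not called. Markers of CA2 pyramidal cells, a cell type known to carry nets, were lower in ventral libraries for 4 of 7 and higher for 1 (median -0.64). The CA2 marker sum correlated with Acan over the 24 libraries (Pearson's r 0.65, and 0.61 within groups). The part of these cells in the aggrecan difference was not tested. The parvalbumin gene Pvalb was lower in ventral libraries in only 6 of 12 animals (median 33.2 CPM in ventral and 33.1 CPM in dorsal libraries). Syt2, another gene of fast-spiking interneurons, had medians of 30.9 CPM in ventral and 32.1 CPM in dorsal libraries. A list of 11 interneuron markers, which also holds genes of other interneurons such as Sst and Vip, had 6 higher in ventral libraries and 0 lower. Dentate granule cell markers were lower in ventral libraries for 6 of 6 (median -0.90), and summed to between 122 and 248.6 CPM in ventral and between 224 and 509 CPM in dorsal libraries. Over the 24 libraries this sum correlated with Acan (Pearson's r 0.78, and 0.31 within groups) and with Adamts4 (0.85, and 0.60 within groups), and its part in either regional difference was not tested.

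Versican had a smaller difference. It ranged between 9.21 and 13.4 CPM in ventral libraries (median 10.4) and between 8.81 and 14.3 CPM in dorsal libraries (median 11.98), with wide overlap. The log2 fold change was -0.21 ± 0.06 (edgeR adjusted p = 0.0168; lower in 10 of 12 animals). The call ended without saline-sired male B, with a covariate for the choroid plexus level (-0.15) and with the oligodendrocyte covariate (-0.02). Without the choroid-rich libraries the value was -0.13.

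The other 5 genes were not called between regions. Hapln4, the link protein known to hold brevican, had a log2 fold change of -0.12 ± 0.05 (edgeR adjusted p = 0.103), with 107 to 131 CPM in ventral and 104 to 168 CPM in dorsal libraries. It was called at -0.18 with a covariate for the choroid plexus level, and without nicotine-sired female B or saline-sired female C. Without the choroid-rich libraries it was -0.23. Tnr (-0.07 ± 0.04), Hapln1 (-0.04 ± 0.07), Ncan (-0.01 ± 0.04) and Bcan (0.02 ± 0.05) each lay within 2 SE of 0. Brevican, for example, had a median of 189 CPM in ventral and 199 CPM in dorsal libraries.

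**Figure D2:**
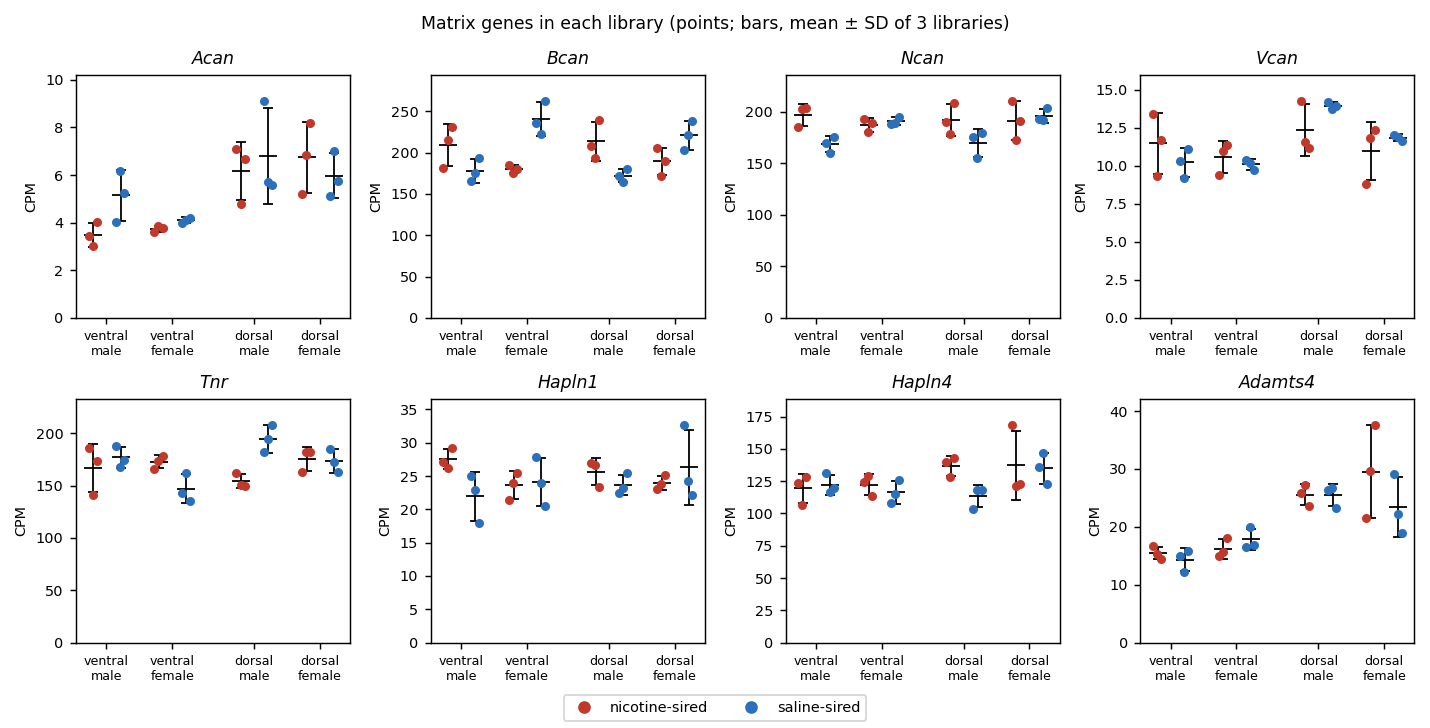
Level of each matrix gene in CPM in every library, by region and sex, with nicotine-sired libraries in red left of saline-sired libraries in blue (points, 1 library; bars, mean ± SD of 3). Acan and Adamts4 lie lower in the ventral groups, Tnr in dorsal males is at 150 to 162 CPM in nicotine-sired against 182 to 208 CPM in saline-sired libraries, and Bcan in ventral females is at 175 to 185 CPM against 222 to 263 CPM.

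The main question of the study was whether offspring of nicotine-treated fathers differ. Below, ranges of 3 against 3 libraries are given as description, since such groups can separate without a sire effect. How many of all genes separated in this way was not counted. Averaged over the sexes, edgeR called 0 of the 8 genes in the ventral hippocampus, against 1.75% of genes tested, and 0 in the dorsal hippocampus, against 0.0784%. Unadjusted p-values under 0.05 were found for 2 members in the ventral hippocampus (3015 of all 19224 genes) and 1 in the dorsal (2062 of 19130). DESeq2 also called 0 members in either, against 681 ventral and 205 dorsal genes. Within males, Tnr was called in the dorsal hippocampus (1 of 8, against 1.78% of genes). No member was called in the ventral hippocampus (0 of 8, against 3.21%). In ventral males 4 members had an unadjusted p under 0.05, against 3042 of 19224 genes. DESeq2 called 2 members there, against 894 genes. Within females, 0 of 8 were called in the ventral hippocampus, against 0.0312% of genes, and 0 of 8 in the dorsal, against 0.0314%. Unadjusted p-values under 0.05 were found for 2 members in ventral females (2668 of 19224 genes) and 1 in dorsal females (2547 of 19130). DESeq2 called 1 member in ventral and 0 in dorsal females, against 269 and 260 genes.

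Tenascin-R, a trimer whose arms tie lectican tails together, was lower in the dorsal hippocampus of nicotine-sired males. It stood at 162, 150 and 150.0 CPM in nicotine-sired males A, B and C, against 182, 194 and 208 CPM in saline-sired males A, B and C, with no overlap. The log2 fold change was -0.34 ± 0.07 (edgeR adjusted p = 0.0386). In dorsal females it was 0.03 ± 0.07, with 163 to 182 CPM in nicotine-sired and 163 to 185 CPM in saline-sired libraries, and the difference between the sexes was -0.36 ± 0.10 (edgeR adjusted p = 0.0828). In the ventral hippocampus Tnr was not called in males (-0.08 ± 0.10), where 141 to 186 CPM in nicotine-sired males overlapped 168 to 188 CPM in saline-sired males. Ventral females did not overlap, at 166 to 179 CPM in nicotine-sired and 135 to 162 CPM in saline-sired libraries, yet the log2 fold change of 0.23 ± 0.10 was not called (edgeR adjusted p = 0.309).

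The dorsal male call of Tnr was held in 3 of 12 refits without 1 animal, those without nicotine-sired female A, saline-sired female A or saline-sired female C. The log2 fold change stayed between -0.38 and -0.29 in all 12. Without the choroid-rich libraries, which leaves nicotine-sired male C alone in its group, the value was -0.41. The call also ended with the antisense ratio described below as a covariate (-0.34 ± 0.08). It ended too with a GC index (-0.26 ± 0.06) or a length index (-0.19 ± 0.07) of each library as a covariate. These indices give, per library, the median log2 deviation of genes in the upper quartile by transcript GC content or length less that of genes in the lower quartile. The GC index was -0.08, -0.06 and 0.09 in dorsal nicotine-sired males A, B and C, against -0.04, -0.16 and -0.16 in dorsal saline-sired males A, B and C, and overlapped. The length index did not overlap, at 0.042, -0.058 and -0.08 in dorsal nicotine-sired males A, B and C, against 0.084, 0.08 and 0.204 in dorsal saline-sired males A, B and C. Their part in the Tnr difference was not tested beyond these fits.

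Brevican, a lectican made mainly by astrocytes and itself cut by ADAMTS4, had opposite sire differences in the sexes. In the ventral hippocampus it stood at 182, 215 and 231 CPM in nicotine-sired males A, B and C, against 166, 175 and 194 CPM in saline-sired males A, B and C. Nicotine-sired females A, B and C had 185, 175 and 180.0 CPM, against 236, 222 and 263 CPM in saline-sired females A, B and C. The males overlapped and the females did not. The log2 fold change was 0.23 ± 0.09 in males (edgeR adjusted p = 0.224) and -0.42 ± 0.09 in females (edgeR adjusted p = 0.122), neither called. In males it was called with the GC index (0.31 ± 0.07, edgeR adjusted p = 0.0241) or the length index (0.27 ± 0.07, edgeR adjusted p = 0.0432) as a covariate. In females it was called with neither index. The difference between the sexes, males minus females, was 0.65 ± 0.13 and was called (edgeR adjusted p = 0.0295; 1 of 8 members, against 1.07% of genes).

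The dorsal hippocampus of the same animals gave like values for brevican. Nicotine-sired males A, B and C had 208, 194 and 240.0 CPM, against 172, 164 and 180 CPM in saline-sired males A, B and C, with no overlap (0.31 ± 0.09, edgeR adjusted p = 0.117). DESeq2 called the male difference at 0.31 (adjusted p = 0.0434). Without the choroid-rich libraries, which leaves nicotine-sired male C alone in its group, it was 0.49. Nicotine-sired females had 172 to 206 CPM and saline-sired females 204 to 239 CPM (-0.22 ± 0.09, edgeR adjusted p = 0.350). The dorsal difference between the sexes was 0.53 ± 0.13 with an edgeR adjusted p = 0.0551, and 0 of 8 members were called there, against 2.24% of genes. DESeq2 called 2 members, against 1282 of 19130 genes. An unadjusted p under 0.05 was found for 2 members, against 3859 genes. The ventral and dorsal libraries share animals, so these values are not independent of each other.

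The ventral call of the sex difference in brevican was held in 5 of 12 refits without 1 animal, with log2 values between 0.57 and 0.74. The 5 were those without nicotine-sired male A, nicotine-sired female A, saline-sired male C, saline-sired female A and saline-sired female B. The call also ended with the choroid plexus level (0.66 ± 0.16) or the antisense ratio (0.57 ± 0.28) as a covariate. Without the choroid-rich libraries, which leaves nicotine-sired female A alone in its group, the value was 0.61. The antisense ratio, the summed count of noncoding genes opposite coding genes as a percentage of that of the coding genes, was 0.304 to 0.354 in ventral nicotine-sired males and 0.178 to 0.210 in ventral saline-sired males. The GC index was -0.04 to 0.03 in ventral nicotine-sired females and 0.09 to 0.38 in ventral saline-sired females, without overlap. In the fit with it as a covariate the call of the sex difference was kept. The male value was 0.31 in that fit. The ventral brevican value over both sexes was then 0.04, against -0.09 ± 0.07 without the covariate, neither called. As it is the mean of the male and female values, the female difference was smaller in size in that fit than the -0.42 without the covariate. The part of the GC index in the brevican values was not tested beyond this fit.

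**Figure D3:**
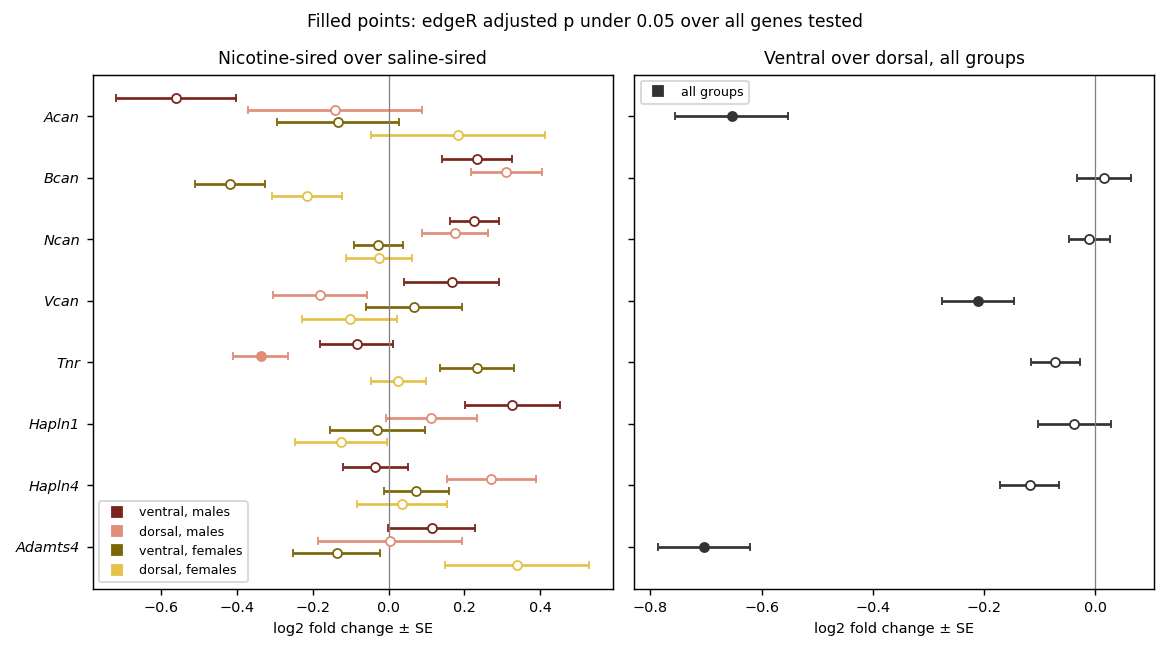
Log2 fold change ± SE of each matrix gene, nicotine-sired over saline-sired in each region and sex (left) and ventral over dorsal over all groups (right). Filled points passed an edgeR adjusted p of 0.05 over all genes: Tnr in dorsal males (-0.34), and Acan (-0.65), Vcan (-0.21) and Adamts4 (-0.70) between regions. Bcan lies right of 0 in males and left of 0 in females in both regions.

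The other lecticans had no sire difference past the threshold. Neurocan in ventral males did not overlap, at 185, 203 and 203 CPM in nicotine-sired males A, B and C against 169, 160 and 175 CPM in saline-sired males A, B and C (0.23 ± 0.06, edgeR adjusted p = 0.0733). Aggrecan in ventral males had 3.44, 3.03 and 4.03 CPM in nicotine-sired males A, B and C, against 4.03, 6.16 and 5.27 CPM in saline-sired males A, B and C, with an overlap in the last decimals (-0.56 ± 0.16, edgeR adjusted p = 0.0742). DESeq2 called both, with adjusted p = 0.0144 for Ncan and 0.0356 for Acan. Aggrecan in ventral females spanned 3.59 to 3.85 CPM in nicotine-sired and 3.96 to 4.21 CPM in saline-sired libraries, without overlap but with a log2 fold change of only -0.13 ± 0.16. Versican differed by -0.18 ± 0.12 to 0.17 ± 0.12 over the 4 region and sex groups, with overlap in each of them.

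Neither link protein nor the protease was called for sire treatment. Hapln1 in ventral males had 26.2 to 29.2 CPM in nicotine-sired and 17.9 to 24.9 CPM in saline-sired libraries (0.33 ± 0.13, edgeR adjusted p = 0.207). Hapln4 in dorsal males had 128 to 143 CPM in nicotine-sired and 104 to 119 CPM in saline-sired libraries (0.27 ± 0.12, edgeR adjusted p = 0.260). Neither of these pairs of groups overlapped, and in the other 3 combinations of region and sex each gene did. Adamts4 varied most in dorsal females, where nicotine-sired libraries had 21.5, 29.6 and 37.5 CPM and saline-sired libraries 29.2, 22.2 and 19.0 CPM (0.34 ± 0.19). The oligodendrocyte marker sum in the same dorsal females was 5626 to 9286 CPM in nicotine-sired and 5043 to 6986 CPM in saline-sired libraries.

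Whether the sire difference itself differs between regions was tested over all 24 libraries. No member was called, and neither was any gene (0% of 19849 by edgeR, 945 with an unadjusted p under 0.05, and 0 by DESeq2). Tnr came nearest, with a ventral minus dorsal difference of 0.23 ± 0.09 and an unadjusted p of 0.0165 (edgeR adjusted p = 0.881).

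The wider matrix machinery was followed in 6 lists that held 92 tested genes in all. Between regions, 35 were higher and 18 lower in ventral libraries, among 29.2% of all genes called. Other core proteins of the brain matrix were mostly higher: 13 of 17 rose and 2 fell (median 0.29, against -0.01 for all genes). Those that rose include the reelin gene Reln (0.59 ± 0.14), the tenascin-C gene Tnc (0.56 ± 0.11), Sparc (0.52 ± 0.06) and neuroglycan C, Cspg5 (0.31 ± 0.07), while the testican gene Spock3 (-0.51 ± 0.07) and the glypican gene Gpc1 (-0.44 ± 0.08) fell. Among hyaluronan genes 7 of 15 rose and 2 fell, with the receptor gene Cd44 higher (1.43 ± 0.27) and the hyaluronan synthase gene Has3 lower (-0.86 ± 0.15). Proteases and inhibitors split 4 higher and 4 lower of 19, with the inhibitor gene Timp2 higher (1.37 ± 0.14) and the aggrecanase gene Adamts1 lower (-0.46 ± 0.08).

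Chondroitin sulfate synthesis genes split as well, 6 higher and 6 lower of 23. Xylt1, whose product starts the chain, was higher (0.64 ± 0.08) and the 6-sulfotransferase gene Chst3 was lower (-0.63 ± 0.10). Of net receptors and ligands, 4 of 16 rose and 3 fell, and the receptor phosphatase gene Ptprs, which binds chondroitin sulfate, was higher (0.23 ± 0.04). The link protein gene Hapln2, known from nodes of Ranvier in myelinated axons, was lower (-0.73 ± 0.08), in 12 of 12 animals, and Hapln3 was higher (0.59 ± 0.16). The oligodendrocyte marker values given for Adamts4 stand beside Hapln2 as well.

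For sire treatment, the same lists held few calls. In dorsal males 1 gene rose and 3 fell of 91, against 1.78% of all genes called: the vitronectin gene Vtn rose (0.49 ± 0.11), and Hapln2 (-0.70 ± 0.15), the plasminogen activator gene Plat (-0.36 ± 0.08) and the protease inhibitor gene Timp1 (-2.04 ± 0.39) fell. Timp1 is a low transcript, averaging 0.18 CPM in dorsal nicotine-sired and 0.74 CPM in dorsal saline-sired males. In ventral males 2 rose and 1 fell of 92, a share near the 3.21% of all genes called: Tnc (1.01 ± 0.23) and the chondroitin polymerizing factor gene Chpf2 (0.40 ± 0.07) rose, and Hapln2 fell (-0.71 ± 0.15). EdgeR called none in females of either region or over both sexes.

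Hapln2 thus fell in nicotine-sired males of both regions. Ventral libraries had 7.14 to 7.52 CPM in nicotine-sired and 11.5 to 12.7 CPM in saline-sired males, and dorsal libraries averaged 13.0 ± 1.16 CPM in nicotine-sired and 21.1 ± 3.33 CPM in saline-sired males (SD, n = 3 each). The groups overlapped in neither region. The oligodendrocyte marker sum overlapped between the same groups, at 3724 to 4118 CPM in ventral nicotine-sired and 3892 to 4131 CPM in ventral saline-sired males, and at 7394 to 8436 CPM in dorsal nicotine-sired and 6056 to 8077 CPM in dorsal saline-sired males. Hapln2 in dorsal females averaged 16.4 ± 3.29 CPM in nicotine-sired and 11.2 ± 0.57 CPM in saline-sired libraries, without overlap. Its log2 fold change was 0.555 ± 0.146 in dorsal females (edgeR adjusted p = 0.199) and 0.037 ± 0.15 in ventral females, neither called. The difference between the sexes was called in the dorsal hippocampus for 3 of 91 list genes, against 2.24% of all genes. The genes were Hapln2 (-1.25 ± 0.21), Tnc (1.31 ± 0.26) and Timp1 (-2.63 ± 0.59). In the ventral hippocampus it was called for 4 of 92, against 1.07% of all genes. These were Tnc (1.59 ± 0.33), Chpf2 (0.52 ± 0.10), the xylosyltransferase gene Xylt2 (0.44 ± 0.09) and Timp1 (-3.89 ± 0.84). Timp1 was low in ventral libraries too, averaging 0.13 CPM in nicotine-sired and 0.54 CPM in saline-sired males. In ventral females it averaged 0.28 CPM in nicotine-sired and 0.08 CPM in saline-sired libraries. Tenascin-C, a relative of tenascin-R, averaged 5.50 CPM in ventral nicotine-sired males and 2.74 CPM in ventral saline-sired males, against 4.19 CPM in ventral nicotine-sired females and 6.22 CPM in ventral saline-sired females.

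Across the 24 libraries the members did not vary as 1 set. Pearson correlations of log2 CPM are given over all libraries and then within groups, as descriptions over 24 libraries that share animals. Bcan and Ncan moved together (0.75, and 0.81 within groups) and Tnr moved with Vcan (0.58, and 0.72 within groups). Bcan and Tnr moved oppositely (-0.73, and -0.52 within groups). Hapln4 tracked the summed excitatory neuron markers (0.88, and 0.88 within groups), a list that also holds Snap25, which is not particular to excitatory neurons. Adamts4 tracked the oligodendrocyte marker sum (0.94, and 0.78 within groups).

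**Figure D4:**
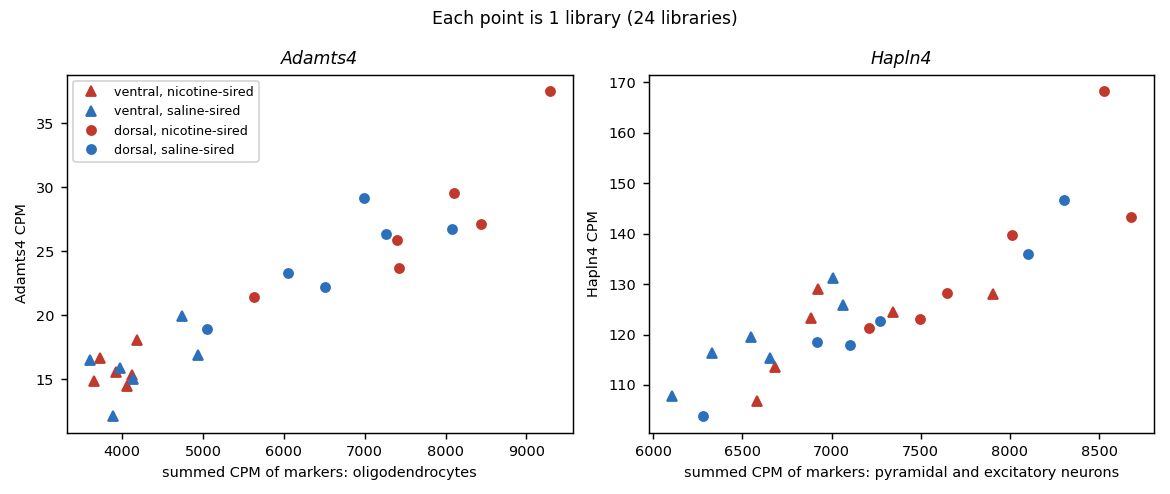
Level of Adamts4 against the summed CPM of 10 oligodendrocyte markers (left) and of Hapln4 against the summed CPM of 6 excitatory neuron markers (right), 1 point per library (triangles, ventral; circles, dorsal). Adamts4 is highest, at 37.5 CPM, in the library with the highest marker sum, and ventral libraries cluster at low sums. The excitatory neuron list also holds Snap25, which is not particular to these neurons.

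The genes most like each member by this correlation, over the 24 libraries and leaving out predicted genes, differed between the members. For Adamts4 they were the transferrin gene Trf (0.97), Tmem63a (0.97) and Tmem88b (0.96). For Hapln4 they were Mapk10 (0.84), Adam23 (0.81) and Klc2 (0.80), and for Acan they were Ampd2 (0.89), Nr1h3 (0.88) and Lman2 (0.87). Bcan was most like Mrps26 (0.91), Poldip2 (0.91) and Chadl (0.90), and Ncan was most like Tie1 (0.86), Sox21 (0.86) and Zbtb22 (0.84). Tnr was most like Ascc3 (0.92) and Bod1l (0.91), Vcan most like Tcf12 (0.90), Lrp6 (0.87) and Pkd2 (0.86), and Hapln1 most like Selenot (0.85), Chpt1 (0.83) and Lrrcc1 (0.83).

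The GC and length indices of the libraries moved with several members. The GC index correlated with Bcan (0.71, and 0.80 within groups), and oppositely with Tnr (-0.72, and -0.73 within groups) and Hapln1 (-0.51, and -0.75 within groups). The length index correlated with Tnr (0.81, and 0.81 within groups) and Vcan (0.67, and 0.72 within groups). The transcripts differ in these features: that of Bcan is 60.7% G or C and 3141 bp long, that of Tnr 47.7% and 12202 bp, that of Vcan 43.7% and 12427 bp, and that of Hapln1 39.8% and 5715 bp. The fits with either index as a covariate, described beside Tnr and Bcan, are the only test made of it.

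**Figure D5:**
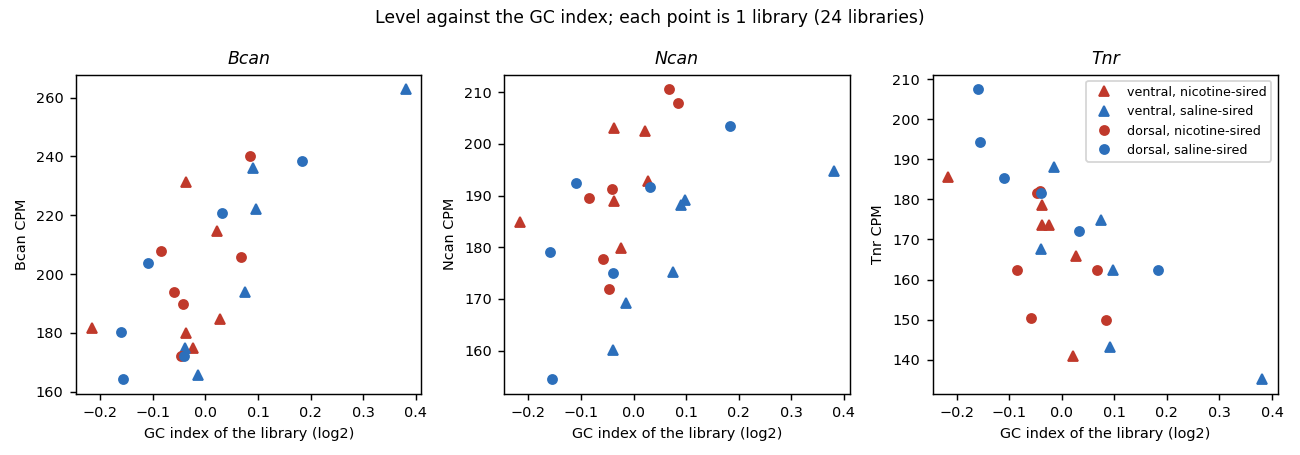
Level of Bcan, Ncan and Tnr in CPM against the GC index of the library (log2), 1 point per library (triangles, ventral; circles, dorsal; red, nicotine-sired; blue, saline-sired). Bcan lies higher and Tnr lower in libraries with a higher index, and the ventral library of saline-sired female C has both the highest index (0.38) and the highest Bcan level (263 CPM).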

How the data were processed

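The labels' protocols give a stranded mRNA library kit and single-end 150 bp reads over 3 lanes. In the submitters' processing notes stand the builds GRCm38 and mm10 and the tools Cuffdiff 2.2.1.3, Cufflinks and TopHat2 2.1.0, with no role given. The authors deposited raw read counts per gene. How reads were counted, with which strand setting and annotation, is not given in the sources used here. GENCODE M21 held 51719 of the 51912 gene identifiers, and 193 were not found there.

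Each region's 12 libraries were fitted apart with edgeR 4.0.16 (limma 3.58.1, R 4.3.3), and all 24 libraries jointly for comparisons of regions. Each fit took the genes left by filterByExpr, scaled libraries by TMM and held 1 mean per group. The quasi-likelihood F test was robust and two-sided. Its p-values were adjusted over every gene in the fit by the Benjamini-Hochberg method, and a gene was called at an adjusted p under 0.05. They held 19224 ventral, 19130 dorsal and 19849 joint genes, and all 8 members passed the filter in each. SEs are the size of the log2 fold change divided by the square root of F. TPM used the union exon length in GENCODE M21. On simulated counts with 200 genes changed 2-fold, 98.5% were called in the ventral and 97% in the dorsal comparison over both sexes, and 100% between regions. Unchanged genes made up 6.64%, 4.43% and 5.21% of the calls there. The changed genes were drawn above a minimum level, and smaller changes or comparisons within 1 sex were not simulated.

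The members, the 6 pathway lists and the 16 marker lists were chosen with earlier results of these data known. All members are named. Of each pathway list, genes past the threshold may be named, or the 3 with the smallest p where fewer than 3 pass, and not all of these are. Like genes are the 3 with the highest correlation, and 1 of those for Tnr is not reported here.

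Ventral and dorsal libraries of 1 title prefix come from the same animal and so pair. Over the 12 pairs, the median correlation of their deviations from the group means was 0.29 (-0.14 to 0.73), and 8 were over 0.1. Also tried were the RLE scaling, no filter, non-robust estimation, DESeq2 1.42.0 (Wald test), covariates for the choroid plexus level or the antisense ratio, replicate blocks, the spread of all 24 libraries, TPM from the longest transcript and leaving out each animal. Chosen after seeing the data were covariates for the GC index, the length index and the oligodendrocyte level, and fits without choroid-rich libraries. The GC and length indices used 9490 coding genes with a mean of at least 10 CPM, as log2 (CPM + 0.5). Figures were drawn with matplotlib 3.10.9.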

Additional observations from a re-analysis of the deposited data

Results flagged for a closer look

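The brevican gene Bcan had a sire difference that differed between the sexes in the ventral hippocampus, by a test of the difference itself. Males minus females, it was 0.65 on the log2 scale (SE 0.13, edgeR adjusted p = 0.0295). Of the male libraries, 2 of 3 nicotine-sired ones were above the highest saline-sired one, and in females all 3 nicotine-sired libraries were below the lowest saline-sired one. The call ended in 7 of 12 refits without 1 animal.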

How the results depend on the processing

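Over 10 comparisons, 1832 log2 fold changes of members were refitted under other settings: 30 lost a call, 26 gained one, and 106 changed sign. Of the 106, 45 were called in either fit or moved by over 1 SE, and these are given below. The others that changed sign were uncalled, moved by less and are counted among the 1731 values whose call was the same. Acan and Adamts4 kept their calls between regions in each setting other than the oligodendrocyte covariate. Aggrecan had the fewest counts, between 132 and 389 per library, which limits its precision. With TPM from the longest transcript, Bcan stood at 121 TPM and Ncan at 49.07 TPM. The cause of the changes below was not tested.

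Members called changed as follows. DESeq2 called 2 in ventral males (Ncan and Acan, against 894 of all genes) and 1 in ventral females (Bcan, against 269 genes). It called 2 in dorsal males (Tnr and Bcan, against 876 genes) and 2 for the dorsal sex difference (Bcan and Tnr, against 1282 genes). Without the low-count filter 1 was called in ventral females (against 99 genes) and 1 for the dorsal sex difference (against 483 genes). The GC index left 0 called in dorsal males (against 177 genes) and gave 2 in ventral males (Ncan and Bcan, against 661 genes). The length index left 0 in dorsal males (against 48 genes) and gave 2 in ventral males (Ncan and Bcan, against 941 genes). The antisense ratio left 0 in dorsal males (against 144 genes) and 0 for the ventral sex difference (against 0 genes). It gave 1 for the dorsal sex difference (against 329 genes). The choroid plexus covariate left 0 for the ventral sex difference (against 143 genes). Fits without the choroid-rich libraries leave some groups with 1 library, so their calls are not given. The spread of all 24 libraries gave 1 for the dorsal sex difference (against 1137 genes). The oligodendrocyte covariate left 0 between regions. Without each animal in turn, 0 to 1 were called in dorsal males, 0 to 1 for the ventral sex difference, 0 to 2 for the dorsal one, 0 to 2 in ventral males, 0 to 1 in ventral females and 2 to 4 between regions.

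The replicate block by title letter, which pairs no animals, left 0 members called in dorsal males, where Tnr was -0.34 (edgeR adjusted p = 0.0868). Same-lettered libraries of different groups share only a letter. The replicate block by animal called the same number of members between regions, 3, and 7042 genes against 5803.

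None of the following values was called, and each has the sign opposite to that in the fit without the setting. With the GC index, Bcan was -0.036 and Hapln1 0.0336 between regions, Bcan 0.0254 and Hapln1 -0.0588 for the region difference in sire effect, Bcan 0.0412 and Tnr -0.0462 in ventral libraries of both sexes, and Ncan 0.0506 and Vcan -0.0839 in ventral females. With the length index, Adamts4 was 0.0672 and Vcan 0.18 for the dorsal sex difference, Vcan -0.0719 in ventral females and 0.012 in dorsal males, Hapln1 0.10 in dorsal libraries of both sexes and Tnr -0.0026 in ventral ones. With the antisense ratio, Hapln1 was -0.25 and Vcan -0.18 in ventral males, -0.0933 and -0.17 for the ventral sex difference, and -0.20 and -0.0937 in ventral libraries of both sexes, where Adamts4 was 0.33, Hapln4 -0.11 and Tnr -0.0379. With the choroid plexus covariate, Vcan was -0.0777 in ventral females. With the oligodendrocyte covariate, Hapln1 was 0.0539, Tnr 0.0236 and Bcan -0.14 between regions.

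Without the choroid-rich libraries, Acan was 0.25 in dorsal males, -0.22 in dorsal females and 0.47 for the dorsal sex difference, Ncan was 0.13, Tnr -0.14 and Adamts4 -0.26 in dorsal females, and Hapln1 was -0.0464 in dorsal males. Adamts4 was -0.16 in dorsal libraries of both sexes, 0.19 for the dorsal sex difference and 0.091 for the region difference in sire effect, Ncan was -0.11 for that region difference, and Vcan was 0.15 for the dorsal sex difference and -0.11 in ventral females.

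Leaving out 1 animal at a time changed the sign of many uncalled values near 0, and 5 of them moved by over 1 SE. In dorsal males Acan ranged between -0.27 and 0.13, and in dorsal libraries of both sexes Hapln1 ranged between -0.0611 and 0.0838. In dorsal females Hapln1 ranged between -0.24 and 0.0495 and Hapln4 between -0.15 and 0.11. In ventral males Tnr ranged between -0.17 and 0.0183.

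Over all genes tested, the counts of called genes moved by over 1.5 times in each comparison other than the region difference in sire effect, which had 0 in every setting. The ranges below leave out the fits without an animal or without the choroid-rich libraries. In dorsal libraries of both sexes the counts ran between 0 (length index) and 205 (DESeq2) against 15. In ventral ones they ran between 1 (antisense ratio) and 681 (DESeq2) against 337. They ranged between 48 (length index) and 876 (DESeq2) against 341 in dorsal males, and between 0 (antisense ratio) and 941 (length index) against 617 in ventral males. In females they ranged between 0 (GC index) and 260 (DESeq2) against 6 in dorsal, and between 0 (antisense ratio) and 269 (DESeq2) against 6 in ventral libraries. For the sex difference they ranged between 43 (length index) and 1282 (DESeq2) against 428 in dorsal, and between 0 (antisense ratio) and 523 (DESeq2) against 205 in ventral libraries. Between regions the lowest was 0 (oligodendrocyte covariate), against 5803.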
